A study of Mus musculus with 6 samples.

Results

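The genes described are 10 markers and signals of endothelial tip cells and of the VEGF and apelin axes in mouse gliomas grown in brains with and without Esm1. They are Esm1, Apln, Aplnr, Kdr, Flt1, Dll4, Angpt2, Vegfa, Nrp1 and Pgf, chosen by name and found by their symbols in the deposited table, where they make up 10 of 16729 genes. RNA was sequenced from intracranial tumors of the gliomasphere line mG7080, which came from a genetic mouse model of glioma and was injected into every host. The hosts were C57BL/6 mice, given as C57BL/6J in the methods, with 3 animals per genotype and no other treatment. Those called WT 1, WT 2 and WT 3 were WT. Those called KO 1, KO 2 and KO 3 carried a whole-animal deletion of Esm1 (genotype ESM1-KO). WT hosts were bought and KO hosts came from a donated line, so they were not stated to be littermates, and only females were used. The hosts were some weeks old at injection, with age ranges that differ between the methods and the reporting summary. The methods describe euthanasia at endpoint symptoms, and give no time at which tumors were taken for RNA. Only the hosts lacked Esm1, since the injected cells carry the intact gene, and the tissue mixes RNA from tumor cells with RNA from vessels, brain and immune cells of the host. In such bulk samples fewer cells of a type and less RNA per cell cannot be told apart.

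New vessels are led by endothelial tip cells, which extend filopodia along gradients of VEGF-A, while the stalk cells behind them are held back from the tip state by Notch signaling from the ligand Dll4. VEGF-A acts mainly through the receptor Kdr (VEGFR2) with the co-receptor Nrp1, whereas Flt1 (VEGFR1) binds VEGF-A tightly, signals weakly and takes ligand away from Kdr. Esm1 encodes Endocan, a secreted proteoglycan and a marker of tip cells, and Apln (apelin) and its receptor Aplnr are likewise induced in sprouting endothelium. Glioma cells in hypoxic zones are a well known source of VEGF-A.

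The promoters of the deleted gene and of the VEGF receptor pair are shown because genes of this axis are known targets of hypoxia. RefSeq windows of 300 bases around the transcription start were at hand for 8 of the 10 genes, with 10 windows in all. None was at hand for Aplnr or Angpt2. The core letters of the hypoxia response element, ACGTG and GCGTG, were searched on either strand and are printed in capitals, so that CACGC and CACGT mark matches on the opposite strand. Each sequence is given 5′ to 3′ along its gene.
Esm1 promoter, GRCm38.p6 chr13:113209409-113209708, plus strand: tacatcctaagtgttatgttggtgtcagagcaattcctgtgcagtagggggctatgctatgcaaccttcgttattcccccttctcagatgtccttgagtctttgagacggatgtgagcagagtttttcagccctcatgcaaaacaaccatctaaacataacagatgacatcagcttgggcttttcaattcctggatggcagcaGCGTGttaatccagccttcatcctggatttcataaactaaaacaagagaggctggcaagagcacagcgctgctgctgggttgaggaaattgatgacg
Kdr promoter, GRCm38.p6 chr5:75978406-75978705, minus strand: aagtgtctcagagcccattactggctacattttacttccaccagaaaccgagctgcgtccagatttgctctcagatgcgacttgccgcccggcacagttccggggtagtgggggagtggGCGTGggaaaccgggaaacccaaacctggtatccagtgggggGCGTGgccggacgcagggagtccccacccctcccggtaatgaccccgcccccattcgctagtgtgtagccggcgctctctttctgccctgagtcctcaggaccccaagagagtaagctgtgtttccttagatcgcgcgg
Flt1 promoter, GRCm38.p6 chr5:147725962-147726261, minus strand: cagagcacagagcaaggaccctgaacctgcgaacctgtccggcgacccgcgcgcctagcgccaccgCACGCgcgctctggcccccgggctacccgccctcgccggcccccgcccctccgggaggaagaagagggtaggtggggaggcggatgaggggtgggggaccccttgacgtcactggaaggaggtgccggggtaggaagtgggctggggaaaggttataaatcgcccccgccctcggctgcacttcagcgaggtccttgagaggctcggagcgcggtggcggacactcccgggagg
The Esm1 window held 1 GCGTG, the Kdr window 2 and the Flt1 window 1, the last read as CACGC. At least 1 of the motifs stood in 7 of the 10 windows (70.0%), of 7 genes, against 43.8% of all 32851 promoter windows. No match stood in the Apln window, in 1 Vegfa window (46032328 to 46032627) or in 1 Pgf window (85175933 to 85176232). Taken apart, ACGTG was in 19.6% and GCGTG in 32.4% of all windows. The Esm1 window had a GC content of 46.3%, the Kdr window 60.7% and the Flt1 window 70.7%. The other windows had 59.3% to 66.0%, against a median of 52.7% over all promoters. The motif share was not set against windows of like GC content. A match describes these letters and says nothing of binding.

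The counts of a library summed to 17632070 at the lowest and 22241832 at the highest, which makes 1 read worth 0.0441 to 0.0568 CPM (a read's share of its library scaled by edgeR's TMM factors, times 1000000). The low-count filter of edgeR removed none of the 10 genes. Esm1 on chromosome 13 of GRCm38 (113209659 to 113218098, plus strand) was set against the labels. Its counts were 25, 21 and 82 in WT 1, WT 2 and WT 3, and 1, 24 and 4 in KO 1, KO 2 and KO 3. In Esm1 reads the library labelled KO 2 thus matched WT 1 and WT 2 and not KO 1 and KO 3. What share of these reads came from the injected cells, which carry the intact gene, was not tested, so the count cannot settle the label. Along the leading principal axis of the log2 CPM values (84.5% of their variance) KO 2 lay at -34.8, among the WT libraries (-88.0 to -18.7). KO 1 (88.5) and KO 3 (121.9) lay away from these. Fold changes are therefore given over all 6 libraries and again without KO 2. Because the Esm1 count itself set that library apart, the Esm1 difference without KO 2 is a description and no test. KO 2 was also seen to lie among the WT libraries, so p-values without it depend on that choice for the other genes too. Over the 6 libraries Pgf (Pearson r = 0.896), Aplnr (0.884) and Angpt2 (0.877) followed Esm1, and Flt1 (-0.919) ran against it. Outside the 10 genes, 918 of 15292 genes with a mean of at least 1 CPM had an r above 0.9 with Esm1.

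**Figure D1:**
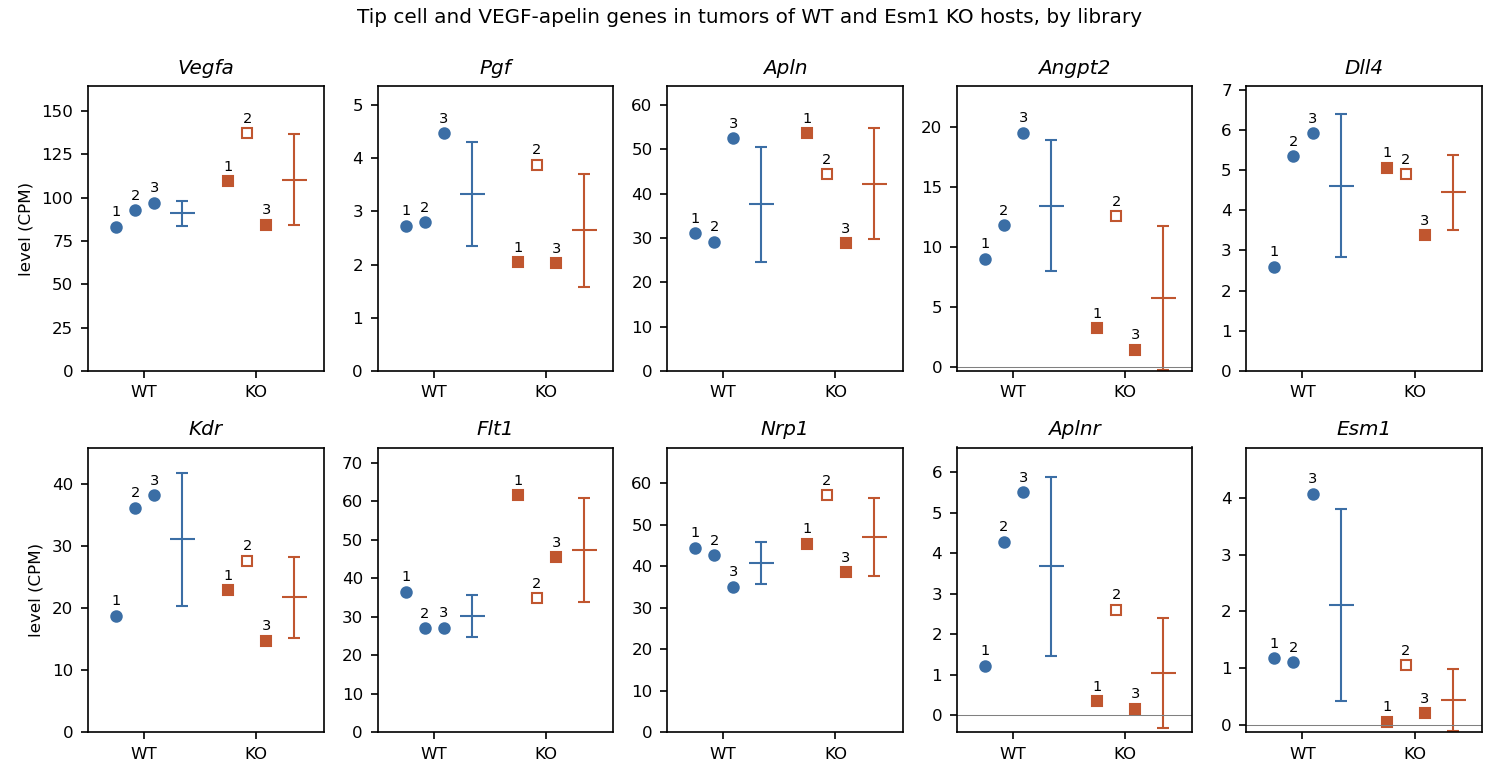
Level of each of the 10 genes in CPM on linear axes, with 1 point per library numbered as in the text, circles for WT and squares for KO hosts, an open square for KO 2, and the mean ± SD (n = 3) beside each group. KO 1 and KO 3 lie below all WT libraries for Angpt2, Aplnr, Pgf and Esm1 and above them for Flt1, while KO 2 lies within the WT range for 7 of the 10 genes.

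Over all 6 libraries no gene of the 10 passed edgeR's quasi-likelihood test at an adjusted p under 0.05 (0 of 10, against 0.0% of 16166 genes), and DESeq2 (6.69% of all genes), edgeR's exact test (0.65%) and limma-voom (0.0%) also called 0 of 10. At an unadjusted p under 0.05 the count was 1 of 10 (Flt1), against 27.1% of all genes. Without KO 2, Angpt2 and Aplnr were lower and Flt1 was higher in KO hosts, so that 3 of the 9 genes other than Esm1 passed, against 52.8% of 16279 genes (28.3% lower and 24.5% higher). The share of called genes among the 9 was below that of the whole table. The median log2 fold change of the 9 genes other than Esm1 was -0.05 over all 6 libraries and -0.11 without KO 2, beside a median of -0.02 over all genes in either comparison.

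The level of each KO library was also set against the WT range. In KO 3, 6 of the 10 genes lay below all WT libraries and 1 above, beside 45.2% and 42.0% of all genes. In KO 1, 4 lay below and 4 above, beside 44.6% and 41.8% of all genes. In KO 2, 7 lay within the WT range, 1 below (Esm1) and 2 above (Vegfa and Nrp1), beside 55.1%, 22.5% and 22.4% of all genes. The groups of all 6 libraries did not overlap for 1 gene in the lower direction (Esm1, against 14.8% of all genes) and for 0 in the higher direction (against 12.6%). Without KO 2 they did not overlap for 4 lower genes (Esm1, Aplnr, Angpt2 and Pgf, against 40.3% of all genes) and 1 higher gene (Flt1, against 37.2%).

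Among the ligands, Vegfa (chromosome 17, 46016993 to 46032369), the main inducer of vessel growth, had levels of 83.1, 92.8 and 97.0 CPM in WT hosts. In KO hosts it stood at 109 CPM in KO 1, 137 in KO 2 and 84.4 in KO 3. KO 1 and KO 2 were above every WT library and KO 3 was inside their range, so the groups overlapped. The mean was 90.9 ± 7.13 CPM in WT and 110 ± 26.3 in KO hosts (SD, n = 3). The log2 fold change, KO minus WT, was 0.28 (SE 0.20, edgeR adjusted p = 0.330) and 0.11 without KO 2 (SE 0.16, edgeR adjusted p = 0.571). Vegfa thus did not pass the test in either comparison.

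Pgf (chromosome 12, 85166635 to 85177790), placental growth factor, is a ligand of Flt1 that does not bind Kdr. Its level was 2.73, 2.80 and 4.47 CPM in WT hosts. KO 1, KO 2 and KO 3 had 2.04, 3.88 and 2.02 CPM. KO 1 and KO 3 fell just below the lowest WT library and KO 2 between WT 2 and WT 3. The log2 difference was -0.33 (SE 0.39, edgeR adjusted p = 0.534), and -0.69 without KO 2 (SE 0.34, edgeR adjusted p = 0.132).

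Apln (X chromosome, 48025146 to 48034853) encodes the secreted peptide apelin. It was at 31.1, 29.2 and 52.6 CPM in WT hosts and at 53.6, 44.4 and 28.8 CPM in KO 1, KO 2 and KO 3. KO 1 was the highest of the 6 libraries and KO 3 the lowest, so the groups spanned each other. The log2 difference of 0.17 (SE 0.33) was smaller than its error, as was that of 0.15 (SE 0.37) without KO 2, with edgeR adjusted p of 0.705 and 0.747.

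Angpt2 (chromosome 8, 18690263 to 18741562) is the angiopoietin that tip cells secrete and that mostly opposes Angpt1 at the receptor Tek (Tie2). Its counts of 191, 223 and 393 in WT hosts corresponded to 8.99, 11.8 and 19.5 CPM. KO 1 had 56 counts (3.18 CPM) and KO 3 had 27 (1.40 CPM), each below every WT library, whereas KO 2 with 285 counts (12.6 CPM) lay between WT 2 and WT 3. Over all 6 libraries the log2 difference was -1.23 (SE 0.80, edgeR adjusted p = 0.291). Without KO 2 Angpt2 fell by 2.53 on the log2 scale (SE 0.51, edgeR adjusted p = 0.0142), and the mean level in WT hosts was 5.86 times that in KO 1 and KO 3. This call was lost when KO 3 was left out as well (-2.05, edgeR adjusted p = 0.0860), and without KO 1 the value was -3.23 (edgeR adjusted p = 0.0462).

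Dll4 (chromosome 2, 119325784 to 119335962), the Notch ligand of tip cells, had 2.59, 5.34 and 5.91 CPM in WT and 5.05, 4.89 and 3.37 CPM in KO hosts. All 3 KO libraries lay inside the WT range, with WT 1 the lowest of the 6. Its log2 difference was -0.05 (SE 0.38, edgeR adjusted p = 0.920) and -0.11 without KO 2 (SE 0.42, edgeR adjusted p = 0.842), and its sign turned under other settings.

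Of the receptors, Kdr (chromosome 5, 75932827 to 75978458, minus strand) carries most of the VEGF-A signal in endothelium. It was at 18.8, 36.2 and 38.2 CPM in WT 1, WT 2 and WT 3. In KO 1, KO 2 and KO 3 it was at 22.9, 27.6 and 14.7 CPM. KO 3 was the lowest library, but WT 1 was below KO 1 and KO 2, so the groups overlapped. The log2 difference was -0.51 (SE 0.35, edgeR adjusted p = 0.312), and -0.70 without KO 2 (SE 0.36, edgeR adjusted p = 0.143). Without WT 1 as well as KO 2 it was -0.96 (SE 0.23) and passed, with an edgeR adjusted p of 0.0148.

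Flt1 (chromosome 5, 147561604 to 147726011, minus strand) binds VEGF-A and Pgf. It had 777, 511 and 548 counts in WT hosts, or 36.6, 27.0 and 27.2 CPM. In KO hosts it had 1087, 791 and 876 counts, or 61.7, 34.9 and 45.5 CPM. KO 1 and KO 3 were above every WT library, and KO 2 was below WT 1 and above WT 2 and WT 3. The log2 difference was 0.65 over all 6 libraries (SE 0.25, unadjusted p = 0.0430, edgeR adjusted p = 0.184). Without KO 2 Flt1 rose by 0.84 on the log2 scale (SE 0.22, edgeR adjusted p = 0.0240), 1.77 times the WT mean. The call was lost when any of WT 2, WT 3, KO 1 or KO 3 was also left out (log2 0.60 to 1.04, edgeR adjusted p from 0.0571 to 0.136). The counts pool the membrane receptor and its soluble decoy form.

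Nrp1 (chromosome 8, 128358604 to 128503363), the co-receptor of Kdr that also binds semaphorins on axons, was at 44.5, 42.7 and 35.1 CPM in WT hosts. In KO 1, KO 2 and KO 3 it was at 45.5, 57.2 and 38.7 CPM. KO 1 exceeded WT 1 by a small margin and KO 3 lay inside the WT range. The log2 difference was 0.21 (SE 0.19, edgeR adjusted p = 0.429) and 0.06 without KO 2 (SE 0.16, edgeR adjusted p = 0.759).

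Aplnr (chromosome 2, 85136225 to 85139923), the G protein-coupled receptor for apelin, spanned the widest range of the receptors relative to its level. Its counts were 26, 81 and 111 in WT hosts, or 1.22, 4.28 and 5.51 CPM. KO 1 had 6 counts, or 0.341 CPM with an exact Poisson 95% interval of 0.125 to 0.741, and KO 3 had 3 counts, or 0.156 CPM with an interval of 0.0321 to 0.455. Even the upper bounds of these intervals were below the lower bound of WT 1 (0.799 CPM), while KO 2 with 59 counts (2.60 CPM) lay between WT 1 and WT 2. These intervals cover counting error only. The log2 difference over all 6 libraries was -1.80 (SE 1.07, edgeR adjusted p = 0.258), and without KO 2 Aplnr fell by 3.84 on the log2 scale (SE 0.85, edgeR adjusted p = 0.0172). That call was lost when WT 3, KO 1 or KO 3 was also left out (log2 -4.48 to -3.38, edgeR adjusted p from 0.0519 to 0.107).

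Esm1 itself, the tip cell product deleted in the hosts, had levels of 1.18 CPM in WT 1, 1.11 in WT 2 and 4.07 in WT 3. In the KO hosts its level was 0.0568 CPM in KO 1, 1.06 in KO 2 and 0.208 in KO 3. The 1 count of KO 1 allows up to 0.316 CPM and the 4 counts of KO 3 up to 0.532 CPM (exact Poisson 95% intervals), whereas the interval of KO 2 (0.678 to 1.57 CPM) overlapped those of WT 1 and WT 2. WT 3 was the highest library by a wide margin. The log2 difference over all 6 was -2.20 (SE 1.01, edgeR adjusted p = 0.192), with -3.89 (SE 0.98) as the descriptive value without KO 2. Leaving out WT 3 moved the value over all 6 to -1.30, and the value without KO 2 to -3.02, while it was -5.05 without KO 2 and KO 3. Which bases of Esm1 the deletion removes is not given in the sources used here, and the counts pool all its exons.

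**Figure D2:**
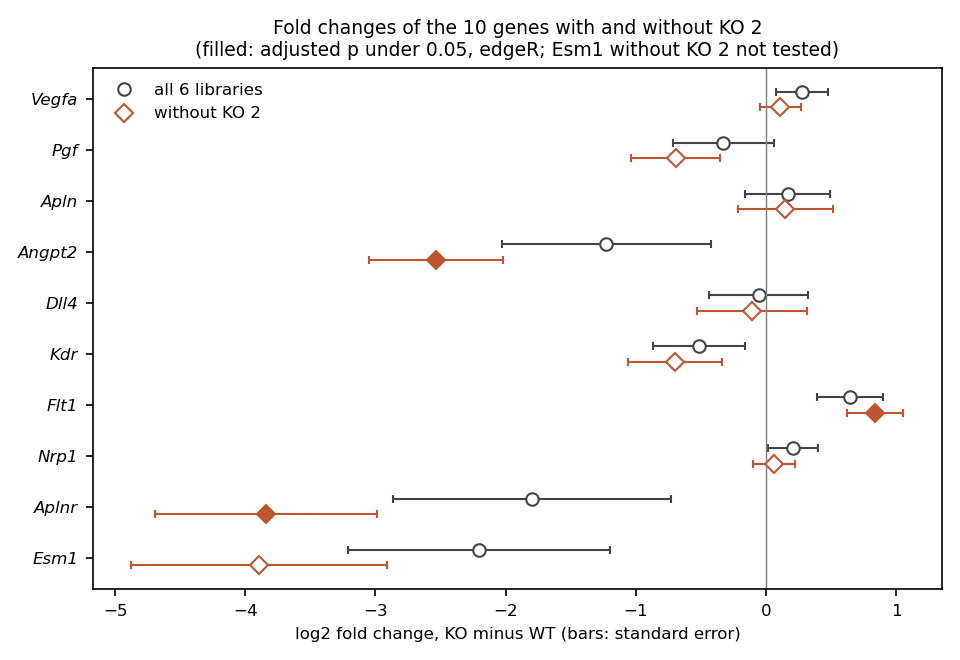
Log2 fold change, KO minus WT, of the 10 genes (bars, standard error) over all 6 libraries (circles) and without KO 2 (diamonds), filled where edgeR's adjusted p was under 0.05, with Esm1 not tested without KO 2. No circle is filled, and the filled diamonds are Angpt2 (-2.53), Aplnr (-3.84) and Flt1 (0.84).

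Levels can be compared between genes only per length. On the FPKM scale, which divides the reads by gene length and library size, Vegfa was the highest of the 10 with a mean of 38.4 ± 9.33 over the 6 libraries (SD), followed by Apln at 12.7 ± 3.89. Nrp1 (7.47 FPKM), Flt1 (6.07) and Kdr (4.96) came next, with Angpt2 at 2.82, Pgf at 2.42 and Dll4 at 1.33. Aplnr (0.699 ± 0.660) and Esm1 (0.642 ± 0.737) were the lowest, and Aplnr exceeded Esm1 in 3 of 6 libraries only. The ranges of neighbours in this order overlapped except those of Vegfa and Apln. The gap in means was smaller than the larger of the neighbours' SDs for Nrp1 and Flt1, Flt1 and Kdr, Angpt2 and Pgf, Dll4 and Aplnr, and Aplnr and Esm1, an SD that takes in the spread between genotypes. Of these, Dll4 was above Aplnr in 6 of 6 libraries. The order was not that of each genotype: in WT hosts Kdr (6.05) was above Flt1 (5.09), and in KO hosts Pgf (2.04) was above Angpt2 (1.64).

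**Figure D3:**
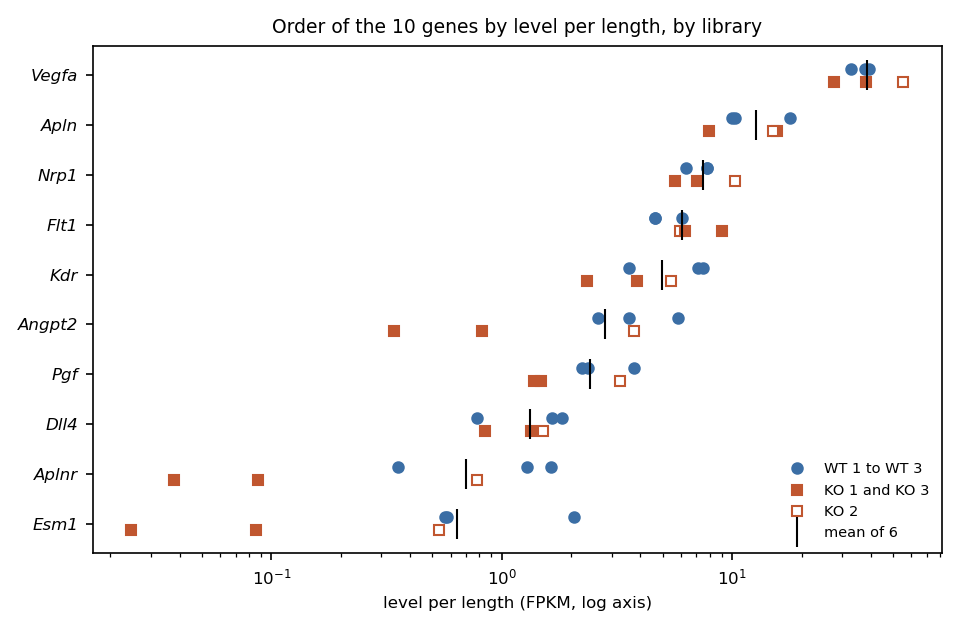
FPKM of the 10 genes on a log axis, ordered by the mean over 6 libraries (vertical line), with circles for WT 1 to WT 3, filled squares for KO 1 and KO 3 and an open square for KO 2. Vegfa stands apart from the next gene, and the spread between libraries is widest on this axis for Aplnr (0.0378 to 1.64 FPKM) and Esm1 (0.0247 to 2.06 FPKM).

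Ratios of FPKM set each gene beside its partner within a library. For the VEGF receptors, the ratio of Flt1 to Kdr was 1.69, 0.648 and 0.618 in WT hosts and 2.34, 1.10 and 2.68 in KO 1, KO 2 and KO 3. KO 1 and KO 3 were above every WT library, and KO 2 was below WT 1. For the apelin pair, the ratio of Apln to Aplnr was 28.7, 7.72 and 10.8 in WT hosts against 178, 19.3 and 209 in KO hosts, where KO 1 and KO 3 rest on 6 and 3 counts of Aplnr. For the ligands of Flt1, the ratio of Vegfa to Pgf was 14.6, 15.9 and 10.4 in WT hosts and 25.7, 17.0 and 20.0 in KO hosts. Here the groups did not overlap with KO 2 included, although those of Vegfa alone and of Pgf alone overlapped.

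The ratio of Angpt2 to Angpt1 was 1.06, 1.86 and 4.45 in WT hosts and 0.746, 1.85 and 0.115 in KO hosts. Angpt1 itself, the activating ligand of Tek, did not pass the test (log2 difference 0.27 over all 6 libraries, edgeR adjusted p = 0.654, and 0.38 without KO 2, edgeR adjusted p = 0.545). Relative to the receptor Tek, Angpt2 stood at 1.05, 1.42 and 2.46 in WT hosts and at 0.221, 1.36 and 0.113 in KO hosts. In each of these ratios KO 1 and KO 3 lay below the WT range and KO 2 inside it. Dll4 relative to Jag1, a Notch ligand that competes with it, was 0.139, 0.179 and 0.324 in WT hosts and 0.510, 0.355 and 0.588 in KO hosts, without overlap. Dll4 alone lay inside the WT range in all 3 KO libraries, whereas Jag1 alone was below it in each. These ratios were not tested, and the share of other gene pairs without overlap was not computed.

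**Figure D4:**
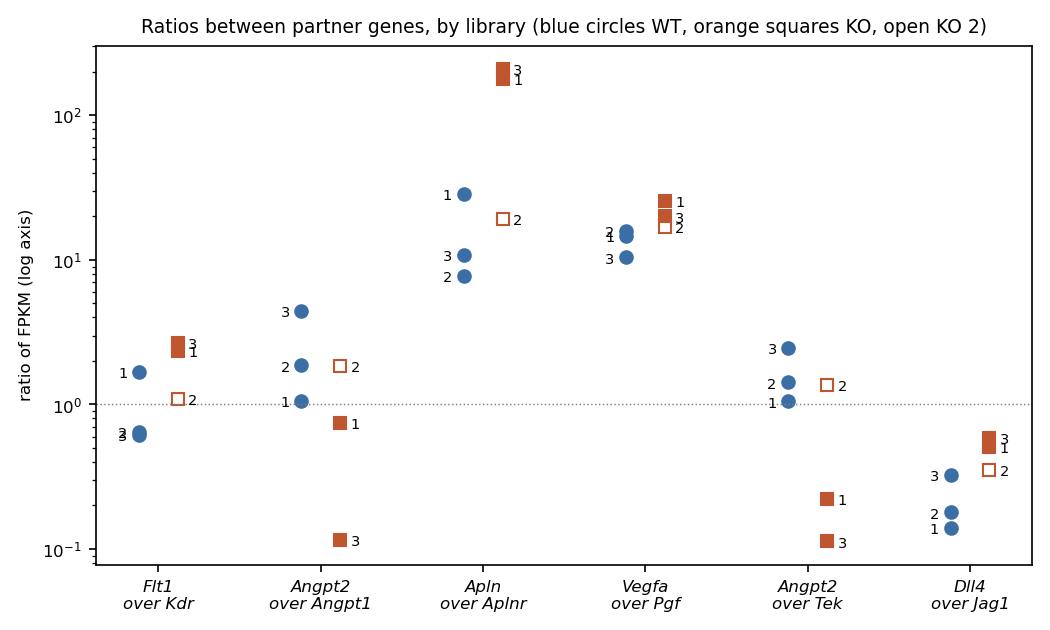
Ratio of FPKM between partner genes in each library on a log axis, with numbered circles for WT and squares for KO hosts, KO 2 open, and a dotted line at a ratio of 1. The Vegfa over Pgf and Dll4 over Jag1 ratios of all 3 KO libraries lie above all 3 WT libraries, and for the other ratios KO 2 lies inside the WT range while KO 1 and KO 3 lie outside it.

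A list of 20 further genes known from tip cells was read too, of which 19 were in the table and tested. Which cells their RNA came from in this bulk tissue was not tested. Per length, Ednrb of this list was at 12.8 to 109 FPKM, and the endothelial marker Pecam1 at 4.35 to 9.71 FPKM. With all 6 libraries 0 of 19 passed, and 7 of 19 were at an unadjusted p under 0.05 (5 lower and 2 higher), beside 27.1% of all genes. Without KO 2, 10 were lower and 5 higher, beside 28.3% and 24.5% of all genes. The median log2 fold change of the list was -0.32 over all 6 libraries and -0.51 without KO 2, against -0.02 over all genes. The lowest was Cxcr4, a chemokine receptor of tip cells that tumor and immune cells also carry, with 9.18, 20.1 and 23.8 CPM in WT hosts and 1.76, 10.2 and 1.45 CPM in KO hosts. Its log2 difference was -1.98 (edgeR adjusted p = 0.186), and it fell by 3.43 without KO 2 (edgeR adjusted p = 0.00812). The highest was Ramp3, a partner of the adrenomedullin receptor, with 5.32, 2.33 and 3.33 CPM in WT and 9.25, 5.42 and 15.1 CPM in KO hosts. Its log2 difference was 1.43 (edgeR adjusted p = 0.184), and it rose by 1.74 without KO 2 (edgeR adjusted p = 0.0204).

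Of 24 other genes of the VEGF, apelin, angiopoietin and Notch pathways, 23 were in the table, and Apela, the second ligand of Aplnr, was not among them. With all 6 libraries 0 of 23 passed, with 5 at an unadjusted p under 0.05 (Jag1 and Nrarp lower, Vegfc, Tek and Src higher), a share below the 27.1% of all genes. Without KO 2, 3 were lower (Notch1, Jag1 and Nrarp) and 6 higher (Vegfb, Vegfc, Figf, Tek, Ptprb and Src), with a list median of 0.28. The 9 of 23 are a smaller share than the 52.8% of all genes called there. The receptor Notch1 had a log2 difference of -0.94 over all 6 libraries (edgeR adjusted p = 0.250) with KO 2 inside the WT range, and of -1.81 without KO 2. The feedback inhibitor Nrarp was at -0.88 and -1.16, and the ligand Jag1 at -1.18 and -1.48. Notch4, Hes1, Hey1 and Hey2 of the same list did not pass in either comparison. Jag1 was at 29.6, 47.4 and 29.0 CPM in WT and at 15.8, 21.9 and 9.14 CPM in KO hosts. Its groups thus did not overlap with KO 2 included, as for 14.8% of all genes in the lower direction.

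Vegfc, a growth factor of lymphatic and sprouting vessels and a ligand of Flt4, was at 1.88, 1.06 and 0.943 CPM in WT and at 3.80, 1.90 and 5.24 CPM in KO hosts. Its log2 difference was 1.49 over all 6 libraries (edgeR adjusted p = 0.184) and it rose by 1.81 without KO 2 (edgeR adjusted p = 0.0171). Vegfb, another ligand of Flt1, was at 46.0, 42.8 and 39.8 CPM in WT and 59.3, 46.2 and 56.2 CPM in KO hosts. Tek was at 11.3, 10.9 and 10.5 CPM in WT and at 19.0, 12.2 and 16.4 CPM in KO hosts. For Vegfc, Vegfb and Tek all 3 KO libraries were above all 3 WT libraries, although by a small margin in KO 2. Of the 23 pathway genes 4 stood so and 3 the other way, beside 12.6% and 14.8% of all genes. Flt4 (log2 -0.17 over all 6 libraries, and -0.41 without KO 2, edgeR adjusted p = 0.238) and Nrp2 (-0.30, and -0.40 without KO 2, edgeR adjusted p = 0.210) did not pass. Neither did Sema3e, a guidance cue of vessels (1.01, and 1.38 without KO 2, unadjusted p = 0.0377, edgeR adjusted p = 0.0653).

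Genes shared by endothelial cells at large put the 10 genes in context. The summed level of 22 pan-endothelial markers was 383 to 512 CPM in WT and 325 to 422 CPM in KO hosts, with overlap. Without KO 2, 3 of the 22 were lower and 3 higher, a smaller share than the 52.8% of all genes called there, and with all 6 libraries 0 passed, with 5 at an unadjusted p under 0.05. The 22 ran from Cd93, a receptor of activated endothelium (-2.05, and -2.61 without KO 2), to Sox17, an arterial transcription factor (0.77, and 0.98 without KO 2). The junction genes Pecam1, Cdh5 and Cldn5 had log2 differences of -0.25, -0.09 and -0.26 over all 6 libraries and of -0.26, -0.06 and -0.34 without KO 2, and did not pass. Podxl, a sialomucin of the luminal surface, was below all WT libraries in all 3 KO libraries (-0.51, edgeR adjusted p = 0.184) and fell by 0.61 without KO 2 (edgeR adjusted p = 0.0191). Of the 22 markers 4 lay so and 1 above all WT libraries, beside 14.8% and 12.6% of all genes. Scaled to the reads on this list, KO 1 and KO 3 had 0.0827 times the mean WT level of Aplnr, 0.201 times that of Angpt2 and 2.08 times that of Flt1. On the same scale Kdr stood at 0.743 times, Dll4 at 1.12 times and Vegfa at 1.29 times. Vegfa per 1000000 pan-endothelial reads was 217177, 181161 and 207343 in WT hosts and 259419, 353309 and 259827 in KO hosts, without overlap. It was the only one of the 10 whose groups did not overlap over all 6 libraries on that scale. The share of all genes without overlap was not computed there. On the CPM scale the Vegfa groups overlapped, and 12.6% of all genes did not overlap in the higher direction.

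Markers of other cells differed between the libraries too, and their counts of calls without KO 2 stand beside 28.3% lower and 24.5% higher of all genes. Of 14 neuron markers 13 were higher. Their summed level was 2187 to 6182 CPM in WT hosts, 13830 in KO 1 and 16679 in KO 3, but 5225 in KO 2. Proliferation markers summed to 1401 to 2646 CPM in WT hosts against 161 in KO 1, 64.4 in KO 3 and 1556 in KO 2, and 14 of 14 were lower without KO 2. The microglia and macrophage list summed to 1225 to 1392 CPM in WT hosts, 653 in KO 1, 583 in KO 3 and 1699 in KO 2, with 8 of 13 genes lower and 1 higher without KO 2. No marker of these lists was at 0 in any library.

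Mural cell markers, which accompany vessels, summed to 379 to 494 CPM in WT hosts, 309 in KO 1, 245 in KO 3 and 526 in KO 2, with 3 of 13 lower and 3 higher. These sums follow Cspg4, which other glial cells also express. Without it they were 187 to 281 CPM in WT hosts, 263 in KO 1, 227 in KO 2 and 216 in KO 3. Oligodendrocyte markers summed to 1351 to 3311 CPM in WT and 3180 to 7451 CPM in KO hosts (0 of 8 lower, 2 higher), and astrocyte markers to 3247 to 4173 and 4529 to 6562 CPM (1 of 8 lower, 4 higher). Of 20 hypoxia response genes 2 were lower and 5 higher, and their sum was 1227 to 1377 CPM in WT and 1238 to 1305 CPM in KO hosts. The abundant Ldha ran lower (log2 -0.53, and -0.73 without KO 2) and was left out after the values were seen. Without it the sum was 758 to 846 CPM in WT hosts. It was then 992 in KO 1, 833 in KO 2 and 974 in KO 3, so that KO 1 and KO 3 lay above all WT libraries. These counts of calls are for the comparison without KO 2, and over all 6 libraries each list had 0. KO 1 and KO 3, in which Aplnr and Angpt2 were low and Flt1 high, were thus also the libraries with the most neuron RNA and the least RNA of proliferation and macrophage genes. The lowest and highest log2 differences over all 6 libraries were those of Gad2 (0.79, and 1.09 without KO 2) and Slc17a7 (1.98 and 2.39) for neurons, Gfap (-1.39 and -2.24) and Slc1a2 (1.83 and 2.11) for astrocytes, and Cd68 (-1.17 and -1.79) and P2ry12 (0.94 and 1.09) for microglia and macrophages. For mural cells they were Des (-0.98 and -0.93) and Myh11 (1.26 and 1.59), for hypoxia Hk2 (-1.34 and -2.62) and Ndrg1 (1.07 and 1.33), and for proliferation Aurkb (-2.16 and -5.10) and Pcna (-1.21 and -1.93). The part of these shifts in the results for the 10 genes was not tested.

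**Figure D5:**
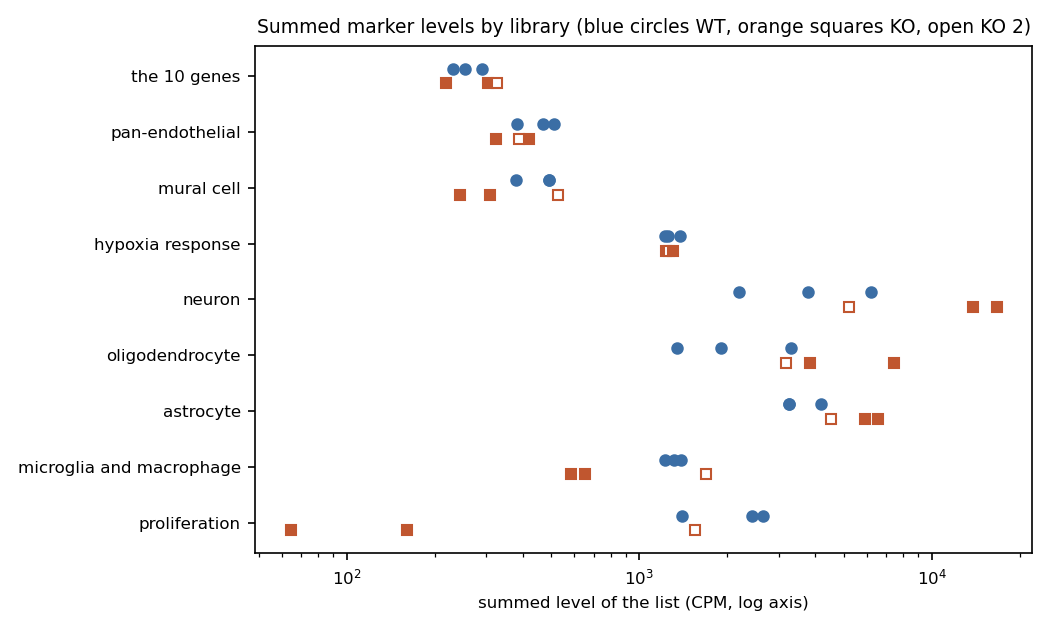
Summed CPM of the 10 genes and of 8 marker lists in each library on a log axis, with circles for WT, filled squares for KO 1 and KO 3 and an open square for KO 2. The pan-endothelial and hypoxia sums overlap between groups, whereas KO 1 and KO 3 stand apart from the WT libraries in the neuron and proliferation sums and KO 2 does not.

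Patterns over the libraries were matched for Esm1, Aplnr and Kdr. Over the 6 libraries and 15292 genes with a mean of at least 1 CPM, the log2 CPM most like that of Esm1 was that of Fam115c (Pearson r = 0.991), followed by Zfp944, Ralgps2, 3110070M22Rik and Usp44. For Aplnr these were Rel (r = 0.999), Shc1, Wbp1l, Wtip and Spcs2, and for Kdr they were Mro (r = 0.994), AU021092, Snord53, Akap8 and Mfsd7b. The number of genes with r above 0.9 was 918 for Esm1, 4197 for Aplnr and 432 for Kdr. For Esm1 and Aplnr the 6 points share the low levels of KO 1 and KO 3, whereas for Kdr WT 1 lay between KO 3 and KO 1, and these values describe an order of libraries only.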

How the data were processed

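RNA-seq was read from 3 tumors of WT and 3 of Esm1 KO hosts, grouped by the sample labels. The authors deposited whole-number counts of reads per gene and, beside them, FPKM values per gene and library. Their methods name HTSeq counts of uniquely mapped reads, edgeR and the human genome hg38, and the reporting summary names STAR, whereas the submitters' processing notes give mm10, CASAVA 1.8.2 and edgeR. The Ovation Ultralow kit of the methods differs from the NEBNext kit of the labels, and strand use is not given in the sources used here. The 6 columns of normalized values were not used, and neither were the 6 columns of the authors' own comparisons, which hold fold changes, p-values and false discovery rates.

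The fit used edgeR 4.0.16 under R 4.3.3 (filterByExpr with minimum count 10 and minimum total 15, TMM factors, two-sided quasi-likelihood test, Benjamini-Hochberg over all genes tested, called at an adjusted p under 0.05). Fold changes are KO minus WT on the log2 scale. The same fit was run without KO 2. No gene is listed that was counted in fewer than 4 libraries or never reached 5 counts. A count of 0 would allow 3 counts, or 0.132 to 0.170 CPM, and p-values measure the spread between tumors of separate animals. FPKM served for levels between genes and ratios, with no test.

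The genes and the 10 lists were chosen with earlier results of these data known, so nothing is supported by their choice. Named were all members, the lowest and highest gene of each list over all 6 libraries (those of the oligodendrocyte list are not reported here), pathway genes with p under 0.05 in either comparison, the partners Angpt1, Tek, Apela, Nrp2, Flt4, Vegfb and Vegfc, and for likeness the 5 genes with the highest Pearson r of log2 CPM (prior count 2). Ednrb, Pecam1, Cdh5, Cldn5, Podxl, Notch4, Hes1, Hey1, Hey2, Cspg4 and Ldha lie outside this rule and were named, and sums without Cspg4 or Ldha taken, after the values were seen. Positions are GENCODE vM21 (GRCm38), and promoters are RefSeq (GRCm38.p6). Also tried were scaling by RLE or by the upper quartile, leaving low counts in, and DESeq2 1.42.0. Further settings were edgeR's exact test, limma-voom (limma 3.58.1), a replicate block and each replicate left out in turn. Without KO 2, leaving out WT 3 is the fit of WT 1, WT 2, KO 1 and KO 3 alone. The fits were tested on simulated data with a fixed spread between replicates (dispersion 0.05) and, unlike these data, no library set apart. In them 16-fold changes were called in 100% of cases. Changes of 2-fold were called in 52% over all 6 libraries and in 30% without KO 2. Python 3.11.15 with matplotlib 3.10.9, scipy 1.17.1, numpy 2.4.6 and pandas 2.3.3 served for tables and plots. Where leaving out a replicate left 1 library in a group, its spread was taken from the other group.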

Additional observations from a re-analysis of the deposited data

How the results depend on the processing

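Over all 6 libraries, 0 of the 10 genes passed under each alternative that kept KO 2, the replicate block included, and leaving out each replicate in turn gave 0 to 4 (4 without KO 2, Esm1 included). Without KO 2 the count of 3 of 9 fell to 1 (Angpt2) with the replicate block and to 1 in WT 1, WT 2, KO 1 and KO 3 alone, and leaving out each further replicate gave 0 (without KO 3) to 4 (without WT 1). Leaving out WT 3 is the same fit as WT 1, WT 2, KO 1 and KO 3 alone, and so gave the same 1. The share of all genes called moved alike, with 0.0% without KO 3, 66.4% without WT 1, 16.7% without WT 3, 11.3% without KO 1 and 19.6% with the block, against 52.8%. The other alternatives (RLE, upper quartile, no filter, DESeq2, the exact test and limma-voom) left it within 1.5 times. Without KO 3 the 0 of 9 had 3 at an unadjusted p under 0.05. The replicate numbers were not taken to pair the tumors: deviations from group means correlated across genes at 0.55 and 0.60 for replicates 1 and 2 but at -0.21 for replicate 3, and KO 3 correlated best with WT 1 (0.54). With the block the calls over all genes without KO 2 went from 8594 to 3189, and over all 6 libraries, where edgeR's quasi-likelihood test called 0 of all genes, DESeq2 called 1119, the exact test 105 and limma-voom 0.

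Signs turned only for genes that did not pass. Over all 6 libraries, Apln was at -0.0403 to 0.51 and Dll4 at -0.34 to 0.19 with replicates left out, and Dll4 was at 0.0199 with limma-voom and 0.0013 with the replicate block. Without KO 2, the replicate block gave -0.0351 for Apln and 0.0739 for Dll4, and the 4 libraries alone gave 0.0989 for Dll4 and -0.0491 for Nrp1. There, leaving out each replicate gave -0.37 to 0.53 for Apln, -0.43 to 0.16 for Dll4, -0.0590 to 0.18 for Nrp1 and -0.0886 to 0.29 for Vegfa. The ratio of mean levels kept its direction or stayed within the spread between replicates in 20 of 20 cases on the FPKM and endothelial scales. Depth limits Esm1 and Aplnr, which rest on 1 to 6 counts in KO 1 and KO 3. The causes were not tested.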
